A study of Arabidopsis thaliana with 6 samples.

Results

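The early light-induced proteins ELIP1 and ELIP2 and 5 related proteins of the chloroplast, SEP1, OHP1, OHP2, LIL3:1 and PSBS, were examined as a group of 7 genes. They were chosen by their locus identifiers, with earlier results of the same arrays known, from 27981 genes on the array, and they are measured by 8 of its 35986 features (1 feature per gene model, so PSBS has 2). All 7 are lower after PEG, and since the group was chosen in view of that contrast, its values are given as a description without a test.

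Germinated seeds of Arabidopsis thaliana ecotype Col-0 at the stage of radicle protrusion were profiled on 6 Affymetrix arrays. In 1 group, 3 pools were frozen untreated. In the other, 3 pools had spent 72 h in polyethylene glycol (PEG), which lowers the water potential of the medium, here to -2.5 MPa. All seeds had been stratified for 72 h at 4 °C and had then germinated at 22 °C in constant white light, whereas the PEG incubation was at 20 °C in the dark. Osmotic stress, darkness, the added time and the lower temperature therefore changed together and cannot be told apart. Each array holds RNA from 1 pool of seeds, and the labels call the pools biological replicates and name no transgene or mutation.

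Light-harvesting proteins bind chlorophyll through a conserved helix, and the light-harvesting-like proteins share that helix without serving mainly to collect light. ELIPs are made for a short time when dark-grown seedlings first see light or when leaves meet excess light, and they are thought to hold free chlorophyll that would otherwise generate singlet oxygen. In resurrection plants such as Craterostigma plantagineum, ELIP-like transcripts are known to accumulate during drying. PSBS senses the acidity of the thylakoid lumen and switches on the release of excess excitation as heat, while OHP1, OHP2 and LIL3 serve the assembly of photosystem II and the making of chlorophyll.

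The arrays of a group resembled each other closely. With values under 4 set to 4, Pearson r over all features was 0.983 to 0.993 within groups and 0.857 to 0.892 between groups. Array medians lay between 4.81 and 4.97 on the deposited log2 scale. Between 38.2 and 41.6 % of the features of an array read less than 4, and for the comparison of groups such values were raised to this floor. Among seed markers, the storage protein genes CRA1 (log2 difference 6.42) and CRU3 (5.10) and the oleosin gene OLEO1 (5.92) rose after PEG (limma with Benjamini-Hochberg adjustment, adjusted p of 0.00101 or less), while the albumin gene SESA1 differed by -0.08 (adjusted p = 1). The germination markers ICL, MLS and EXPA2 differed by 0.11 to 0.47 and did not pass the limit of 0.01 on the adjusted p. Of the green tissue markers, RCA fell by 2.53 (limma adjusted p = 0.00278), with a loss of this call when any array other than PEG replicate 1 was left out (adjusted p up to 0.0173), and RBCS1A (-0.16) and GAPB (-0.61) did not pass, although GAPB did when features failing a filter on low values were not tested (limma adjusted p = 0.00664). Of 3 root hair markers COBL9 and EXPA7, and of 4 floral and pollen markers AP3, AG and VGD1, stayed at the floor throughout, and RHD6 (-0.46) and PI (-0.31) did not pass. PI read less than 4 on all PEG arrays, and without the floor it differed by -1.92 and passed (limma adjusted p = 7.88e-05). RNA of bulk seeds was measured, so fewer green cells and less RNA per cell cannot be told apart, and the part of the markers in the results below was not tested.

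The ELIP transcripts showed the widest separation of the groups. ELIP1 (AT3G22840, chromosome 3) had log2 values of 10.10, 9.77 and 9.81 on the untreated arrays and of 3.20, 3.48 and 3.06 on the PEG arrays. The groups did not overlap, and the lowest untreated array lay 6.29 above the highest PEG array. The group means were 9.89 ± 0.18 (SD, n = 3) and 3.25 ± 0.21 (SD, n = 3) as deposited, a log2 difference of -6.65 (SE 0.17). All PEG arrays lie under the floor, where the probes may no longer follow the transcript, and with the floor the difference was -5.89 (SE 0.10), so that ELIP1 was at least 59.4-fold lower after PEG. This bound moves with the floor and was 29.7-fold at a floor of 5.

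ELIP2 (AT4G14690, chromosome 4) encodes the close relative of ELIP1. Its values were 9.29, 9.34 and 9.14 in untreated seeds and 2.54, 2.82 and 2.36 after PEG. Here too all PEG arrays were under the floor, and 6.32 separated the nearest arrays of the groups. The means of 9.26 ± 0.10 and 2.57 ± 0.23 (SD, n = 3 each) gave a log2 difference of -6.69 (SE 0.17), or -5.26 (SE 0.06) with the floor, at least 38.3-fold lower (19.1-fold at a floor of 5). For both ELIP genes the floor removes the spread of the PEG arrays, so the SE with the floor leaves it out. The differences of ELIP1 and ELIP2 were 0.04 apart as deposited (combined SE 0.24). Among all 35986 features ordered from the most negative difference, ELIP2 took place 2 and ELIP1 place 4 as deposited, and ELIP1 place 1 and ELIP2 place 9 with the floor. Because the ELIP genes are near copies of each other, probes of one may also read the other, and this was not tested.

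**Figure D1:**
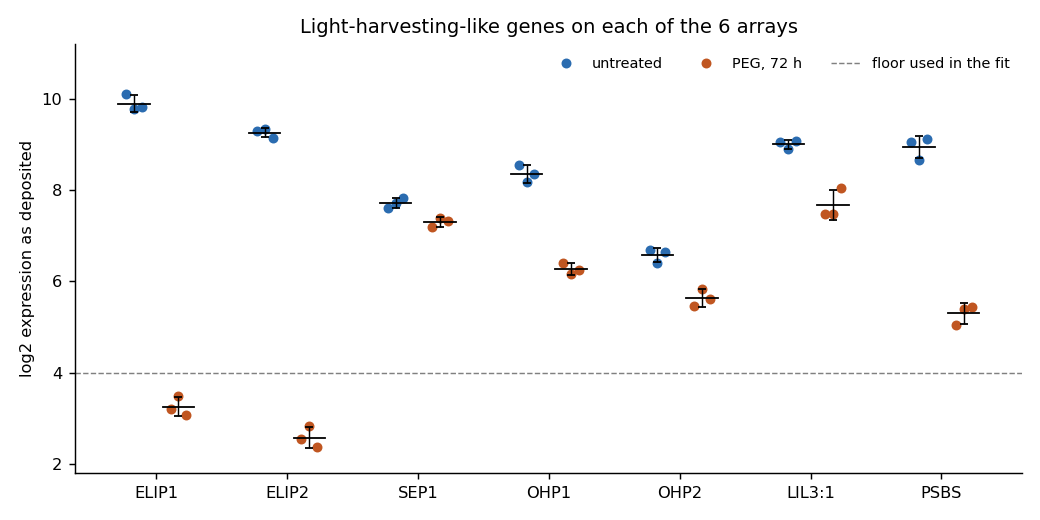
Deposited log2 expression (vertical axis) of the 7 genes on each of the 6 arrays, untreated in blue and PEG in orange, with the group mean and SD (n = 3) as bars and the floor of 4 as a dashed line. ELIP1 and ELIP2 lie between 9.14 and 10.10 on the untreated arrays and under the floor on all PEG arrays, and no gene has overlapping groups.

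PSBS (AT1G44575, chromosome 1, also named NPQ4) is the photosystem II subunit needed for the rapid form of heat dissipation. Its leading feature read 9.06, 8.67 and 9.12 on the untreated arrays and 5.04, 5.40 and 5.44 on the PEG arrays. PSBS stayed above the floor on every PEG array, unlike the ELIP genes, and its groups were 3.22 apart at their nearest arrays. The means were 8.95 ± 0.24 and 5.29 ± 0.22 (SD, n = 3 each), a log2 difference of -3.65 (SE 0.18), 12.6-fold lower. The feature of the second gene model of PSBS read 8.14, 7.64 and 8.18 against 4.37, 4.56 and 4.65, and its difference of -3.46 (SE 0.19) lay 0.19 from that of the leading feature, about 1 SE. In the order of differences as deposited, PSBS followed the ELIP genes at a distance of 2.99 (combined SE 0.26).

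OHP1 and OHP2 are small proteins with a single membrane helix, which in Arabidopsis pair with each other and, with HCF244, support synthesis of the D1 protein of photosystem II. OHP1 (AT5G02120, chromosome 5) read 8.55, 8.17 and 8.35 in untreated seeds against 6.40, 6.15 and 6.25 after PEG. Every PEG array was lower than every untreated array by at least 1.77. The log2 difference was -2.08 (SE 0.13), 4.24-fold lower, between means of 8.35 ± 0.19 and 6.27 ± 0.13 (SD, n = 3 each). OHP2 (AT1G34000, chromosome 1) read 6.68, 6.40 and 6.65 against 5.45, 5.84 and 5.62. Its groups were also separate, but by only 0.56 at the nearest arrays. The log2 difference of OHP2 was -0.94 (SE 0.14), 1.92-fold lower, between means of 6.57 ± 0.15 and 5.64 ± 0.19 (SD, n = 3 each). The log2 difference of OHP1 exceeded that of its partner, and the nearest arrays of its groups were also farther apart.

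LIL3:1 (AT4G17600, chromosome 4) anchors enzymes of chlorophyll synthesis, among them geranylgeranyl reductase, in the thylakoid. It read 9.06, 8.89 and 9.06 on the untreated arrays and 7.48, 7.48 and 8.05 on the PEG arrays. PEG replicate 3 lay 0.57 above the other PEG arrays, the widest spread within a group among the 7 genes, yet stayed 0.85 below the lowest untreated array. The means of 9.01 ± 0.10 and 7.67 ± 0.33 (SD, n = 3 each) gave a log2 difference of -1.34 (SE 0.19), 2.53-fold lower, which moved between -1.53 and -1.24 as each array was left out.

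SEP1 (AT4G34190, chromosome 4), a stress-enhanced protein of the thylakoid whose transcript is known to rise in strong light, had the smallest difference of the group. It read 7.60, 7.70 and 7.82 in untreated seeds against 7.19, 7.39 and 7.32 after PEG. The groups touched most nearly here, with 0.21 between the lowest untreated and the highest PEG array. The log2 difference was -0.41 (SE 0.08), 1.33-fold lower, between means of 7.71 ± 0.11 and 7.30 ± 0.10 (SD, n = 3 each).

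**Figure D2:**
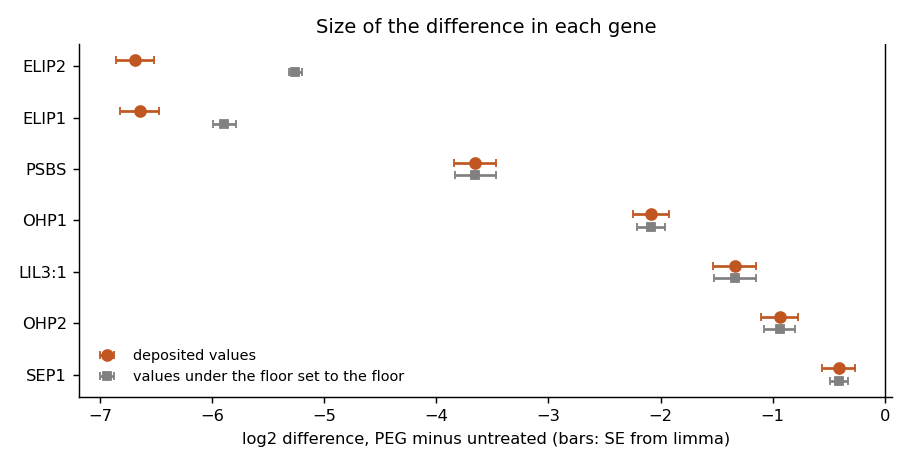
Log2 difference, PEG minus untreated (horizontal axis), of each gene with its SE from limma, from the deposited values (circles) and with values under the floor set to it (squares). The difference ran from -6.69 in ELIP2 to -0.41 in SEP1, and the floor changed it only in ELIP1 and ELIP2.

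The 7 genes thus covered a wide range, from ELIP2 (-6.69) to SEP1 (-0.41), with a median log2 difference of -2.08 against -0.01 for the 16058 genes with a reading over the floor on 3 or more of the 6 arrays. As deposited, neighbours in this order were apart by 2.99 (combined SE 0.26) from ELIP1 to PSBS and by 1.57 (0.25) from PSBS to OHP1. The gaps were 0.75 (0.25) from OHP1 to LIL3:1, 0.40 (0.25) from LIL3:1 to OHP2 and 0.53 (0.22) from OHP2 to SEP1. ELIP2 and ELIP1 were 0.04 apart. The combined SE treats 2 genes as independent although the same arrays read both, and the order was not tested. All 7 passed that filter on low values, ELIP1 and ELIP2 through the untreated arrays alone. In all 7 every PEG array was lower than every untreated array. This pattern was found in 20.2 % of all genes and in 35.3 % of the 16058. The limits were an adjusted p of 0.01 and an absolute log2 difference of 2. ELIP1, ELIP2, PSBS and OHP1, 4 of 7, lay past both, beside 1.64 % of all genes and 2.85 % of the 16058 in this direction, and LIL3:1 made it 5 of 7 past the limit on p alone, beside 8.09 % and 14.1 %. The contrast was known when the genes were chosen, and nothing is read from these shares. OHP1 lay close to the limit on size, with a difference of -1.99 when untreated replicate 1 was left out.

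The arrays within a group did not shift in the same order for all genes. Untreated replicate 2 was the lowest of its group for ELIP1, OHP1, OHP2, LIL3:1 and PSBS, but the highest for ELIP2. PEG replicate 1 was the lowest of its group for SEP1, OHP2, LIL3:1 and PSBS. These shifts within groups reached 0.57 at most, in LIL3:1.

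Most of these genes have a relative or a partner on the array that the group does not contain, and 11 such genes were followed. Of these, 4 fell and 1 rose at an adjusted p of 0.01 or less (8.09 % and 6.59 % of all genes did), 6 did not pass, and none reached a log2 difference of 2. Their median difference was -0.86. The second LIL3 gene, LIL3:2, went the other way from LIL3:1. LIL3:2, singled out after its values were seen, read 7.56, 7.67 and 7.50 in untreated seeds and 8.21, 8.45 and 8.25 after PEG. All PEG arrays were higher, and the log2 difference was 0.72 (SE 0.09, limma adjusted p = 0.00654). With any array left out its adjusted p was 0.0153 to 0.0328, and 0.00221 to 0.00648 when features near the floor were not tested. Between LIL3:1 and LIL3:2, whose differences of -1.34 and 0.72 have opposite signs, no test was made, since LIL3:1 was chosen for its value.

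SEP2, the sister of SEP1 and likewise named after its values were seen, had overlapping groups and a log2 difference of -0.37 (SE 0.25, limma adjusted p = 0.429), close in size to the -0.41 of SEP1 but with a wider spread, which came from PEG replicate 2 at 4.93 against 5.63 and 5.72. HCF244, the partner of OHP1 and OHP2, fell by 1.91 with the floor, from 5.97 to 4.06 (SE 0.17, limma adjusted p = 0.00294). This fall lies between the differences of OHP1 and LIL3:1. HCF136, another assembly factor of photosystem II, fell by 1.24 (SE 0.05, limma adjusted p = 0.000595). PORC, a light-dependent protochlorophyllide oxidoreductase, fell by 1.86 (SE 0.21, limma adjusted p = 0.00556), and CHLG, the chlorophyll synthase, fell by 1.07 (SE 0.14, limma adjusted p = 0.00809). CHLP, the geranylgeranyl reductase that LIL3 proteins anchor, differed by 0.25 with overlapping groups (limma adjusted p = 0.607). The calls of CHLG (adjusted p up to 0.0383 with any array left out), PORC (up to 0.0288, all arrays but PEG replicate 1) and HCF244 (up to 0.018, all but untreated replicates 1 and 2) were lost with 1 array less, and all were kept when low features were not tested (up to 0.00247). Of the PEG arrays of HCF244 only replicate 2 lay above the floor. It passes that filter through the untreated arrays, so its kept call is no support. At a floor of 5, HCF244 did not pass either (-0.97, limma adjusted p = 0.016).

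**Figure D3:**
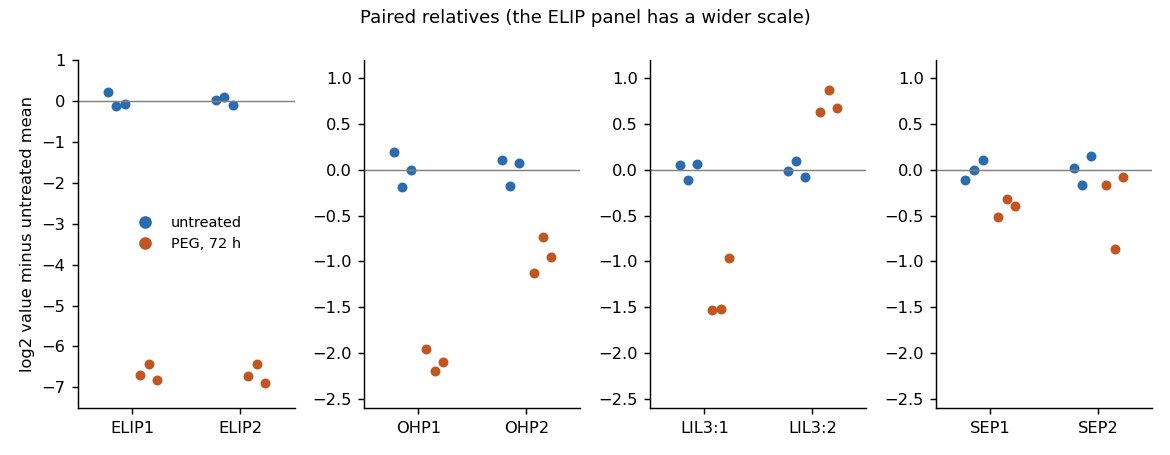
Log2 value of each array minus the mean of the untreated arrays (vertical axis, wider in the first panel) for ELIP1 and ELIP2, OHP1 and OHP2, LIL3:1 and LIL3:2, and SEP1 and SEP2, untreated in blue and PEG in orange. Both ELIP genes lie more than 6 below the untreated mean on every PEG array, OHP1 lies lower than OHP2, LIL3:1 lies below and LIL3:2 above its untreated mean, and SEP2 has overlapping groups.

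PSBS acts together with the xanthophyll cycle, in which violaxanthin is turned into zeaxanthin in strong light. Of 20 genes of heat dissipation and xanthophyll synthesis, 6 fell and 3 rose at the limit on p (8.09 % and 6.59 % of all genes did). The other 11 did not pass, and the median difference was -0.01. LUT2 fell by 1.99 (SE 0.15, limma adjusted p = 0.00217) and LUT5 fell by 1.85 (SE 0.18, limma adjusted p = 0.0038), both enzymes on the way to lutein, and PSY, the phytoene synthase at the entry to carotenoids, fell by 1.85 (SE 0.20, limma adjusted p = 0.00463). None of these falls was as large as the difference of PSBS, -3.65. VTE1, the tocopherol cyclase of vitamin E synthesis, rose from 4.79 to 7.45, by 2.66 (SE 0.26, limma adjusted p = 0.0037). It was the only gene of this list past both limits. ABA1, the zeaxanthin epoxidase, which also supplies precursors of abscisic acid and is named here after its values were seen, rose by 1.77 (SE 0.15, limma adjusted p = 0.00268), while NPQ1, the violaxanthin de-epoxidase that runs the opposite step, differed by 0.39 (limma adjusted p = 0.103). With 1 array left out, VTE1, LUT5 and PSY were outside the limit for any array, LUT2 for all but untreated replicate 2 and ABA1 for all but PEG replicates 1 and 2 (adjusted p up to 0.0253). When only features above the floor were tested, all 5 kept their calls (up to 0.000566).

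The light-harvesting antenna is made of the proteins with which ELIPs share the chlorophyll-binding helix. Of 21 antenna genes, 7 fell and none rose at the limit on p (8.09 % and 6.59 % of all genes did). Past both limits 5 fell (1.64 % of all genes did), 3 were at the floor throughout, and the median difference was -1.09. At an unadjusted p under 0.05 (limma), 13 were lower and 0 higher, a limit for which no share of all genes was computed. LHB1B2 (LHCB1.5) fell by 3.33 (SE 0.10, limma adjusted p = 0.000309), LHCA5, a minor photosystem I antenna protein, fell by 2.35 (SE 0.15, limma adjusted p = 0.00146), and LHCB5, a monomeric photosystem II antenna protein, fell by 2.34 (SE 0.14, limma adjusted p = 0.00116). LHCB6, of the same kind, fell from 6.10 to the floor (limma adjusted p = 0.000874), and its log2 difference was -2.79 as deposited. LHCA5 left the limit without PEG replicate 2, PEG replicate 3 or untreated replicate 1 (adjusted p up to 0.0114). As deposited, the difference of -3.65 in PSBS lay beside -3.63 (SE 0.19) in LHB1B2, and those of ELIP1 and ELIP2 were larger. LHCB1 genes are near copies, and their probes may not tell them apart.

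ELIP transcripts are known to be raised by light through cryptochromes, the UV-B receptor UVR8 and the bZIP factors HY5 and HYH. Of 23 light receptors and regulators, 7 fell and 1 rose at the limit on p (8.09 % and 6.59 % of all genes did), and 15 did not pass. HYH read 8.03, 7.73 and 7.72 in untreated seeds and 3.06, 3.38 and 3.28 after PEG. After PEG it was under the floor, as were ELIP1 and ELIP2, and it fell by 3.83 with the floor (SE 0.10, limma adjusted p = 0.000203). HY5, named after its values were seen, read 6.87, 6.83 and 7.16 against 5.76, 6.38 and 6.68. Its groups did not overlap, yet the nearest arrays were only 0.15 apart, and the difference of -0.68 (SE 0.28, limma adjusted p = 0.162) did not pass. BBX25, a B-box regulator that acts with HY5, read 6.30, 6.37 and 6.14 against 2.13, 2.64 and 2.21 and fell by 2.27 with the floor (SE 0.06, limma adjusted p = 0.000255), an understated value, since no PEG array reached it. UVR8 rose from 7.81 to 9.37, by 1.55 (SE 0.14, limma adjusted p = 0.0031), and PIF5, a phytochrome-interacting factor, fell by 1.47 (SE 0.10, limma adjusted p = 0.00172). The UVR8 call was lost without any array but untreated replicate 2 (adjusted p up to 0.0175), and that of PIF5 without any array but PEG replicates 1 and 3 (up to 0.0129). HYH and BBX25 had all PEG arrays set to the floor, so their SE and p leave out the spread of that group.

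**Figure D4:**
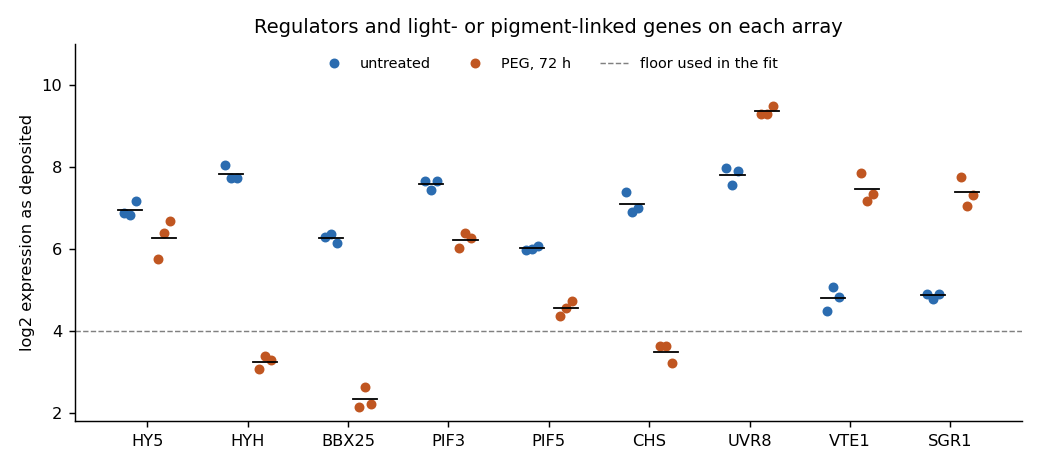
Deposited log2 expression (vertical axis) of HY5, HYH, BBX25, PIF3, PIF5, CHS, UVR8, VTE1 and SGR1 on each of the 6 arrays, with group means as lines and the floor of 4 dashed. HYH, BBX25 and CHS lie under the floor on all PEG arrays, HY5 comes within 0.15 of its untreated values, and UVR8, VTE1 and SGR1 are higher after PEG.

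Flavonoid genes answer to the same light receptors in Arabidopsis. The list holds 6 such genes, 4 enzymes and the regulators MYB12 and MYB111. The 4 enzymes fell at the limit on p and none rose (8.09 % and 6.59 % of all genes did), and the median difference was -1.61. At an unadjusted p under 0.05 (limma), 5 were lower and 0 higher, with no share of all genes computed. CHS, chalcone synthase, fell by 3.09 (SE 0.14, limma adjusted p = 0.000697), from 7.09 to the floor, and FLS1, flavonol synthase, fell by 2.03 (SE 0.07, limma adjusted p = 0.000453). CHI, chalcone isomerase, fell by 1.78 (SE 0.10, limma adjusted p = 0.00108), and F3H, flavanone 3-hydroxylase, fell by 1.43 (SE 0.14, limma adjusted p = 0.00358). On the PEG arrays CHS, FLS1 and CHI, like the ELIP genes, read less than 4, so their falls are understated. F3H lost its call with an array left out, all but PEG replicate 2 (adjusted p up to 0.0204). The calls of CHS, FLS1 and CHI were kept, but all their PEG values were set to the floor. Their SE and p therefore leave out the spread of the PEG arrays and cannot be compared with those of F3H.

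Of 8 genes named for their rise in darkness, 3 fell and none rose at the limit on p (8.09 % and 6.59 % of all genes did). The other 5 did not pass, and the median was -0.31. At an unadjusted p under 0.05 (limma), 4 were lower and 1 higher, with no share of all genes computed. DIN10, related to raffinose synthases, fell by 3.15 (SE 0.36, limma adjusted p = 0.00578), DIN4, a subunit of branched-chain keto acid dehydrogenase, fell by 0.80 (SE 0.04, limma adjusted p = 0.00102) and DIN1 fell by 0.61 (SE 0.07, limma adjusted p = 0.00536). DIN6, the asparagine synthetase ASN1, named after its values were seen, lay under the floor on all untreated arrays and read 6.42, 4.97 and 5.24 after PEG, a log2 difference of 1.55 with the floor (SE 0.43, limma adjusted p = 0.0616). The call of DIN10 was lost without any array but PEG replicate 1 and that of DIN1 without any but PEG replicate 2 (adjusted p up to 0.0291). DIN4 had no difference left at a floor of 5, where all arrays were at that floor, and DIN1 did not pass when arrays were centred on their medians (limma adjusted p = 0.0147).

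Release of chlorophyll from its proteins is the setting in which ELIPs are thought to act. Of 8 genes of chlorophyll breakdown, 3 rose and none fell at the limit on p (6.59 % and 8.09 % of all genes did). The other 5 did not pass, and the median was 0.69. At an unadjusted p under 0.05 (limma), 1 was lower and 5 higher, with no share of all genes computed. SGR1, which removes magnesium from chlorophyll a, read 4.91, 4.79 and 4.90 in untreated seeds and 7.76, 7.05 and 7.32 after PEG. It rose by 2.51 (SE 0.20, limma adjusted p = 0.00249). Its relative SGR2 rose from the floor to 6.67, by 2.67 (SE 0.27, limma adjusted p = 0.00413), an understated value, and HCAR, hydroxymethyl chlorophyll a reductase, by 1.17 (SE 0.04, limma adjusted p = 0.000429). Leaving out an array cost SGR2 (all arrays but PEG replicate 1) and SGR1 (all but PEG replicates 1 and 2) their calls. The limma adjusted p then rose to 0.0231 at most. SGR1 kept its call when low features were not tested. SGR2 did too, but it passes that filter through the PEG arrays alone, so its kept call is no support. At a floor of 5, the difference of SGR2 was 1.67 and did not pass (limma adjusted p = 0.0165).

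**Figure D5:**
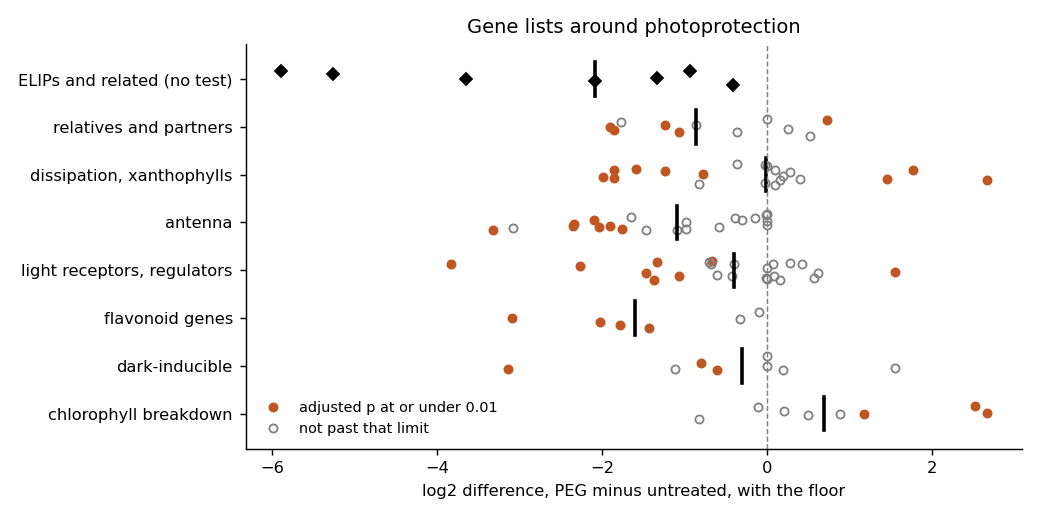
Log2 difference, PEG minus untreated with the floor (horizontal axis), of each gene in the 7 lists, filled where the limma adjusted p was 0.01 or less, with the list median as a bar and the 7 chosen genes as diamonds without a test. Antenna and flavonoid genes that pass lie to the left, chlorophyll breakdown genes that pass lie to the right, and dissipation genes lie on both sides.

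Over the 6 arrays, the profile of each gene, taken as deposited log2 values minus the mean of the untreated arrays, was set beside those of the 16057 other genes above the floor, and likeness was measured as the root mean square difference between profiles. ELIP1 and ELIP2 were each other's nearest gene, at 0.12. AT5G57760 (0.20 from ELIP1) and AT2G45180 (0.29) followed for both. The nearest genes to PSBS were the antenna gene LHB1B2 (0.12), ORS1 (0.13) and AT3G59340 (0.15). OHP1 was nearest to AT1G06000 (0.07), AT3G51720 (0.07) and the cold-responsive gene KIN2 (0.09), and OHP2 to PXN, a peroxisomal NAD carrier (0.06), CXE18 (0.07) and PTAC14 (0.07), a protein of the plastid transcription complex. LIL3:1 was nearest to AT1G72180 (0.08), AT2G03505 (0.08) and WIT2 (0.08), and SEP1 to AT5G13780 (0.04), ZIP4 (0.04) and AT2G21290 (0.05). Such likeness rests mostly on the size of the difference between groups, and with 6 arrays many genes lie close to the small differences of SEP1, OHP2 and LIL3:1.

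Genes beside these loci in the annotation were read as well. Next to ELIP1, HSFA6B lay at the floor on all arrays and AT3G22845 fell by 0.60. Next to ELIP2, APS3 fell by 1.41 and AT4G14695 lay at the floor, and both neighbours of PSBS lay at the floor on all arrays. ELIP1, ELIP2 and PSBS overlap no other annotated gene. SEP1 overlaps EDA9 (0.60), OHP1 overlaps NDP1 (0.46), OHP2 overlaps MES14 (-0.63) and AT1G06717, and LIL3:1 overlaps AT4G17610 (-0.23). AT1G34010, on the other side of OHP2, differed by -0.68, and AT4G34180, on the other side of SEP1, by 0.87. Both neighbours of OHP2 thus had its sign, and both of SEP1 had the opposite sign. Of all these neighbours, AT3G22845 and APS3 alone passed the limit of 0.01 on the limma adjusted p. Whether probes in these overlaps read both genes was not tested.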

How the data were processed

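Log2 values were deposited by the authors for 35986 features on each of 6 arrays, for which the submitters' processing notes name RMA. RNA (50 ng per array) had been amplified and labelled with biotin. No further normalization was applied, and all value columns belonged to the 6 arrays (0 others). Values under 4 were set to 4, and 3 untreated and 3 PEG arrays were compared with limma 3.58.1, run under R 4.3.3, by lmFit and eBayes without covariates, with Benjamini-Hochberg adjustment over all features. The limits were an adjusted p of 0.01 and an absolute log2 difference of 2. The study's array methods give the same limits without stating an adjustment of p. Differences and SE marked as deposited were fitted without the floor. Where all arrays of a group were set to the floor, that group has no spread, and the SE and p leave it out. A gene with several features is represented by the one of highest mean. Symbols, synonyms and neighbours came from the RefSeq table of assembly TAIR10.1, in which 121 of 121 listed loci matched.

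The 7 genes, the lists and the tests were chosen with earlier results of these data known. In each list, up to 4 genes past the limit on p with the largest difference are named, with the 3 nearest profiles of each of the 7 genes. Other names are said to be chosen after their values were seen, apart from genes given as background to a list, all of which are list or marker genes. The lists were compared by counts and medians, with no set test. Alternatives were a floor of 5 or none, array centring, quantile normalization, a filter (reading over 4 on 3 or more arrays), the mean of all features of a gene, a prior that is trended and robust, a fold limit of 1, a limit of 0.05 on the adjusted p, each array left out in turn, and a block for the replicate number. The procedure was tested on simulated data, where 91 of 100 features with a shift of 4 and 66 of 100 with a shift of 2.5 were recovered among 35986, and no unchanged feature was called. With the filter on low values, 96 of 100 and 94 of 100 were recovered among 22123. Summaries used Python 3.11.15, pandas 2.3.3 and numpy 2.4.6. The number of arrays limits the precision. Promoter and protein sequences were not analysed here.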

Additional observations from a re-analysis of the deposited data

How the results depend on the processing

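No difference of the 7 genes or of the 26 genes named in the lists by rule changed direction under an alternative, nor did the median of the 7. Other genes named in the text were not all followed through the alternatives. The median of the dissipation list was -0.01 with the floor and 0.03 without it. The 7 genes were chosen on this contrast, so their counts are no test. The count past both limits was 4 with no floor, a floor of 5, quantile normalization, array centring, the filter on low values, the trended prior, an adjusted p of 0.05 and the mean of all features of a gene, and 5 with a fold limit of 1. Counts past the limit on p moved from 7 to 13 antenna genes (filter, trended prior, adjusted p of 0.05) or 15 (no floor), from 3 to 5 dark-inducible genes (filter, no floor, trended prior) and from 3 to 5 chlorophyll breakdown genes (the same and an adjusted p of 0.05), and from 8 to 14 regulators (trended prior). The count of features past both limits moved from 990 to 658 (floor of 5), 1684 (no floor) and 3675 (fold limit of 1). The filter admits genes that pass it through 1 group alone, such as ELIP1, ELIP2, SGR2, LHCA6, LHCB2.2 and LHCB6. Its counts, and the calls such genes keep under it, support no direction. Of 26 genes named in the lists by rule, a floor of 5 cost HCF244, DIN4 and SGR2 the limit on p and centring cost DIN1.

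With an array left out, 589 to 736 features lay past both limits, 3 to 4 of the 7 genes did, and 4 lay past the limit on p, with a median difference of -2.18 to -1.99. The list counts were 1 to 2 for relatives and partners, 0 to 3 for dissipation, 3 to 5 for the antenna, 2 to 4 for regulators, 3 to 4 for flavonoid genes, 1 to 3 for dark-inducible genes and 1 to 3 for chlorophyll breakdown. With the filter, an alternative chosen after seeing the data, leaving out an array gave 987 to 1130 features, 3 to 4 and 6 of the 7 genes, and list counts of 6 to 7, 10 to 10, 13 to 13, 8 to 10, 4 to 4, 3 to 5 and 3 to 6 in the same order. Of the 26 genes, 11 kept the limit on p in all 6 such fits without the filter and 25 with it. Among the 11, LHCB6, HYH, BBX25, CHS, FLS1, CHI and DIN4 had all PEG arrays set to the floor, and LHB1B2 all but PEG replicate 3. The floor removes the spread of those arrays, so the kept calls of these genes do not show that they are stable. The calls that they and SGR2 keep with the filter support no direction.

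The labels do not say whether equal replicate numbers pair the samples. Same-numbered arrays deviated with correlations of -0.093, -0.016 and 0.042, which with so few arrays cannot settle it. With the number as a replicate block, 25 features were past both limits. The differences of the 7 genes did not change, but 0 of them passed the limit on p, and 0 genes did in each of the 7 lists. At an unadjusted p under 0.05 (limma with this block), 46 of the 97 list genes were lower and 15 higher. The share of all genes at that limit was not computed, so nothing is read from these counts. The replicate block with the filter, also chosen after seeing the data, gave 4 of the 7 genes past both limits, 13 antenna genes, 13 regulators, 5 dark-inducible genes and 5 chlorophyll breakdown genes. Values under the floor limit what can be said of ELIP1 and ELIP2 after PEG to a lower bound.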
